A study of Mus musculus with 6 samples.

Results

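The genes described here are solute carriers for sugars, monocarboxylates, bile acids, other organic anions and cations, vitamins, fatty acids and nucleosides. They are the genes of families Slc2, Slc5, Slc10, Slc16, Slc17, Slc19, Slc22, Slc23, Slc27, Slc28, Slc29, Slc37, Slc51 and Slc52 and of the Slco family, chosen by symbol alone. Of 18448 genes in the table, 83 met this rule, with Slc5a4a and Slc5a4b counted and pseudogenes left out. RNA came from mouse jejunal organoids, epithelial cultures of the small intestine, in 2 groups of 3 libraries. All were of strain C57BL/6 with the genotype Villin-CreERT2; Hnf4aflox/flox, so both groups carried floxed Hnf4a alleles and a tamoxifen-activated Cre driven by the intestinal epithelial villin promoter. One group received 0.5 µM 4-hydroxytamoxifen (4OHT), which activates the Cre, for 24 h and the other the vehicle DMSO. Both were grown with recombinant Wnt3A at 200 ng/mL and collected at day 2 from passaging. The ages of the donor animals were not in the labels. No 4OHT-treated organoids with intact Hnf4a were among the samples, so effects of Hnf4a loss and of 4OHT or Cre activity cannot be told apart.

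Solute carriers move small molecules across membranes along or against their gradients. In the jejunum, sodium-coupled sugar carriers of the Slc5 family work on the brush border facing the gut lumen, and facilitators of the Slc2 family let sugars pass down their gradient, at the brush border or out to the blood. Bile acids, nucleosides, water-soluble vitamins, short-chain monocarboxylates and drugs each have carriers of their own, many of them at one face of the enterocyte only. Hnf4a is a nuclear receptor that is known to sustain enterocyte genes, and the comparison of 4OHT with DMSO asks what changes when it is depleted.

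Promoters are shown for Slc16a12 and Slc22a23, which passed the test described below, so that their start regions can be read beside their levels. RefSeq windows on GRCm38.p6 were matched by symbol for 63 of the 83 carriers, with 83 windows in all. Slc17a9, which also passed the test, had no matched window. The sequences below are the 250 bases before the RefSeq start, on the gene's strand, 5′ to 3′. Capitals mark GC boxes, searched as GGGCGG on both strands. Slc16a12 lies at chr19:34747329-34747578 (minus strand, 57.6% G or C) and Slc22a23 at chr13:34345219-34345468 (minus strand, 78.4% G or C).
Slc16a12: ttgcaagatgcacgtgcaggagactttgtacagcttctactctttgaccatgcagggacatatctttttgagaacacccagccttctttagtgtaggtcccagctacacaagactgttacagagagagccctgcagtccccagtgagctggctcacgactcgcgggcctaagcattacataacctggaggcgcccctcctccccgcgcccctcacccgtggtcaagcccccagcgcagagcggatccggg
Slc22a23: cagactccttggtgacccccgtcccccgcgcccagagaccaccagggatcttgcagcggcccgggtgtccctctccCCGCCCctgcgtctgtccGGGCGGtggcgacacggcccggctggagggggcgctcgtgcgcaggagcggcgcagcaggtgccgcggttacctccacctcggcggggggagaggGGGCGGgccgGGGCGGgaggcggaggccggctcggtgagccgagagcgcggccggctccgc
The Slc16a12 window held 0 GC boxes and the Slc22a23 window held 4. GC boxes occurred in 40 of 83 carrier windows (48.2%) and in 32.7% of all 32851 RefSeq windows of the same length. A TATA box, searched as TATAAA on both strands, occurred in 5 carrier windows (6.02%, against 12.4% of all windows). Some genes give several windows, 8 for Slc29a1, so windows are not independent.

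HNF4 binds a site written here in 2 forms, CAAAGTCCA and CAAAGTTCA, each searched on both strands. Other forms of the site, and sequence outside these windows, were not searched. The first form was in 0 of 83 carrier windows and in 0.384% of all windows. The second form was in 1 carrier window (1.2%), that of the organic cation carrier Slc22a3, and in 0.335% of all windows. Both forms are too rare for 83 windows to show whether carriers differ from all genes. The Slc22a3 site is shown in capitals, on the strand opposite to the gene, at chr17:12507864-12507922 (minus strand), 184 bases before the start.
Slc22a3: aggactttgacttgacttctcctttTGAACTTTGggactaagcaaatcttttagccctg
Levels are given as CPM, the counts of a gene per 1000000 counts of its library, with library sizes scaled by TMM. Slc22a3 did not pass the test: it measured 1.97, 2.78 and 4.0 CPM under DMSO against 1.92, 2.16 and 1.64 CPM under 4OHT, with a log2 fold change of -0.61 (edgeR adjusted p = 0.364, and -0.33 without DMSO replicate 3).

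Library totals ran from 31537100 to 40276242 counts. The test was edgeR's quasi-likelihood F test over 14544 genes, and a gene was called at a Benjamini-Hochberg adjusted p under 0.05. The labels do not say that replicate numbers pair the libraries across groups. Same-number libraries varied together in these counts, so values from a blocked fit, with that number as a factor, are given where the call changed. The pairing thus rests on the same data that the blocked fit tests. That fit also has fewer residual degrees of freedom, so calls made only with the block are less secure. Hnf4a, the targeted gene, measured 840, 846 and 1021 CPM under DMSO against 436, 424 and 482 CPM under 4OHT, a difference of -1.01 on the log2 scale (SE 0.0997, edgeR adjusted p = 0.0124). Every 4OHT library was thus below every DMSO library. DMSO replicate 3 stood apart from DMSO replicates 1 and 2, with higher enterocyte and goblet cell genes, so the larger fold changes that it moved are also given without it. These genes were also higher in 4OHT replicate 3, by less. Some values are therefore given without replicate 3 of both groups as well. The median log2 fold change of 20 enterocyte markers, all expressed, was -0.53, -0.17 without DMSO replicate 3 and -0.36 without replicate 3 of both groups. All 20 had a negative log2 fold change. Of these 0 were called by edgeR or limma-voom, 4 were lower by DESeq2, 7 were lower at an unadjusted p under 0.05 in edgeR, and 8 fell with the block. Their summed level ran from 6206 to 10763 CPM in DMSO and from 4435 to 6975 CPM after 4OHT. Of 8 goblet cell markers, all expressed, 8 had a positive log2 fold change and 6 rose with the block. Their median was 0.75, 1.16 without DMSO replicate 3 and 0.95 without replicate 3 of both groups. Unblocked, 0 were called by edgeR or by limma-voom, 2 by DESeq2 and 3 by unadjusted p in edgeR. Without DMSO replicate 3 edgeR called 5 higher, with adjusted p from 0.0386 for Muc2 to 0.0497 for Clca1. Their summed levels were 2019 to 3846 CPM in DMSO and 3372 to 5803 CPM after 4OHT. Of 10 stem cell markers 8 had a negative and 2 a positive log2 fold change (median -0.34, and -0.37 without DMSO replicate 3). In edgeR 1 of these markers was called lower. The block called 2 higher and 2 lower, and DESeq2 called 2 higher and 1 lower. Of 10 Paneth cell markers edgeR called 1 higher and 1 lower, and with the block 1 higher and 2 lower. Of the proliferation, enteroendocrine and tuft cell markers edgeR called 0. With the block 1 of 10 enteroendocrine markers and 1 of 7 tuft cell markers rose, and DESeq2 called 1 tuft cell marker higher. Of the enteroendocrine markers 7 had a positive and 3 a negative log2 fold change (median 0.28, and 0.40 without DMSO replicate 3). For the tuft cell markers these numbers were 5 and 2 (median 0.18, and 0.43 without DMSO replicate 3). Of 8 fibroblast markers 4 were in the table, with summed levels of 5.17 to 9.42 CPM in DMSO and 5.87 to 8.41 CPM after 4OHT, and Col1a2, Col3a1, Dcn and Lum were not in it. Immune and endothelial markers summed to between 4.79 and 8.43 CPM in every library, with Cdh5 and Kdr not in the table. In bulk RNA, fewer cells of a type and less RNA per cell cannot be told apart.

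Of the 83 carriers, 71 passed the filter on low counts. Slc17a9 and Slc22a23 rose after 4OHT and Slc16a12 fell, beside 0.908% of all tested genes called (0.701% higher and 0.206% lower). With the replicate block 4 carriers rose and 6 fell, beside 6.99% of all genes (3.99% higher and 3.0% lower). The additional 7 were Slc2a1 and Slc22a15, which rose, and Slc22a18, Slc22a4, Slc29a1, Slc5a4b and Slc51b, which fell. DESeq2 called 5 higher and 4 lower, beside 5.56% of all genes with an adjusted p (3.62% higher and 1.94% lower). The calls of limma-voom were Slc17a9, Slc22a23 and Slc16a12 as in edgeR, beside 0.846% of all genes (0.653% higher and 0.193% lower). Unadjusted edgeR p under 0.05 was reached by 6 carriers that were higher (8.65% of all genes) and 12 lower (6.35%). With the block these were 7 (13.3%) and 24 (12.0%). The authors' deposited table called 3 carriers higher and 2 lower by its DESeq column (1.63% of 18448 genes in all) and 5 higher and 5 lower by its edgeR column (3.65%).

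The 71 tested carriers had a median log2 fold change of -0.16, beside 0.00 for all tested genes, and 45 of them (63.4%) were negative, beside 50.8% of all genes. The groups did not overlap for 7 higher carriers (12.5% of all genes did so) and 12 lower ones (10.1%), 22.6% of all genes in both directions. Within same-number pairs, 30 carriers were lower after 4OHT in all 3 pairs (24.5% of all genes) and 15 were higher in all 3 (25.3%). Without DMSO replicate 3 the median was -0.01 and the calls were 2 higher and 2 lower, Slc29a1 being the added one (2.29% of all genes, 1.71% higher and 0.587% lower). Without replicate 3 of both groups the median was -0.09 and the calls were 3 higher and 2 lower (4.1% of all genes, 2.59% and 1.51% by direction). With the block added they were 8 higher and 18 lower (18.3%, 10.1% and 8.16% by direction), from a fit with 1 residual degree of freedom. Leaving out DMSO replicate 1 or 2 or 4OHT replicate 1 left 0 carriers called by edgeR. The shares of all genes called were 0.0404% without DMSO replicate 1 (0.0269% higher and 0.0135% lower), 0.027% without DMSO replicate 2 (0.0203% and 0.00676%) and 0.0606% without 4OHT replicate 1 (0.0471% and 0.0135%). Slc17a9 was the 1 carrier called without 4OHT replicate 2 (0.135% of all genes, 0.115% and 0.0202% by direction) or 4OHT replicate 3 (0.0811%, 0.0676% and 0.0135%).

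**Figure D1:**
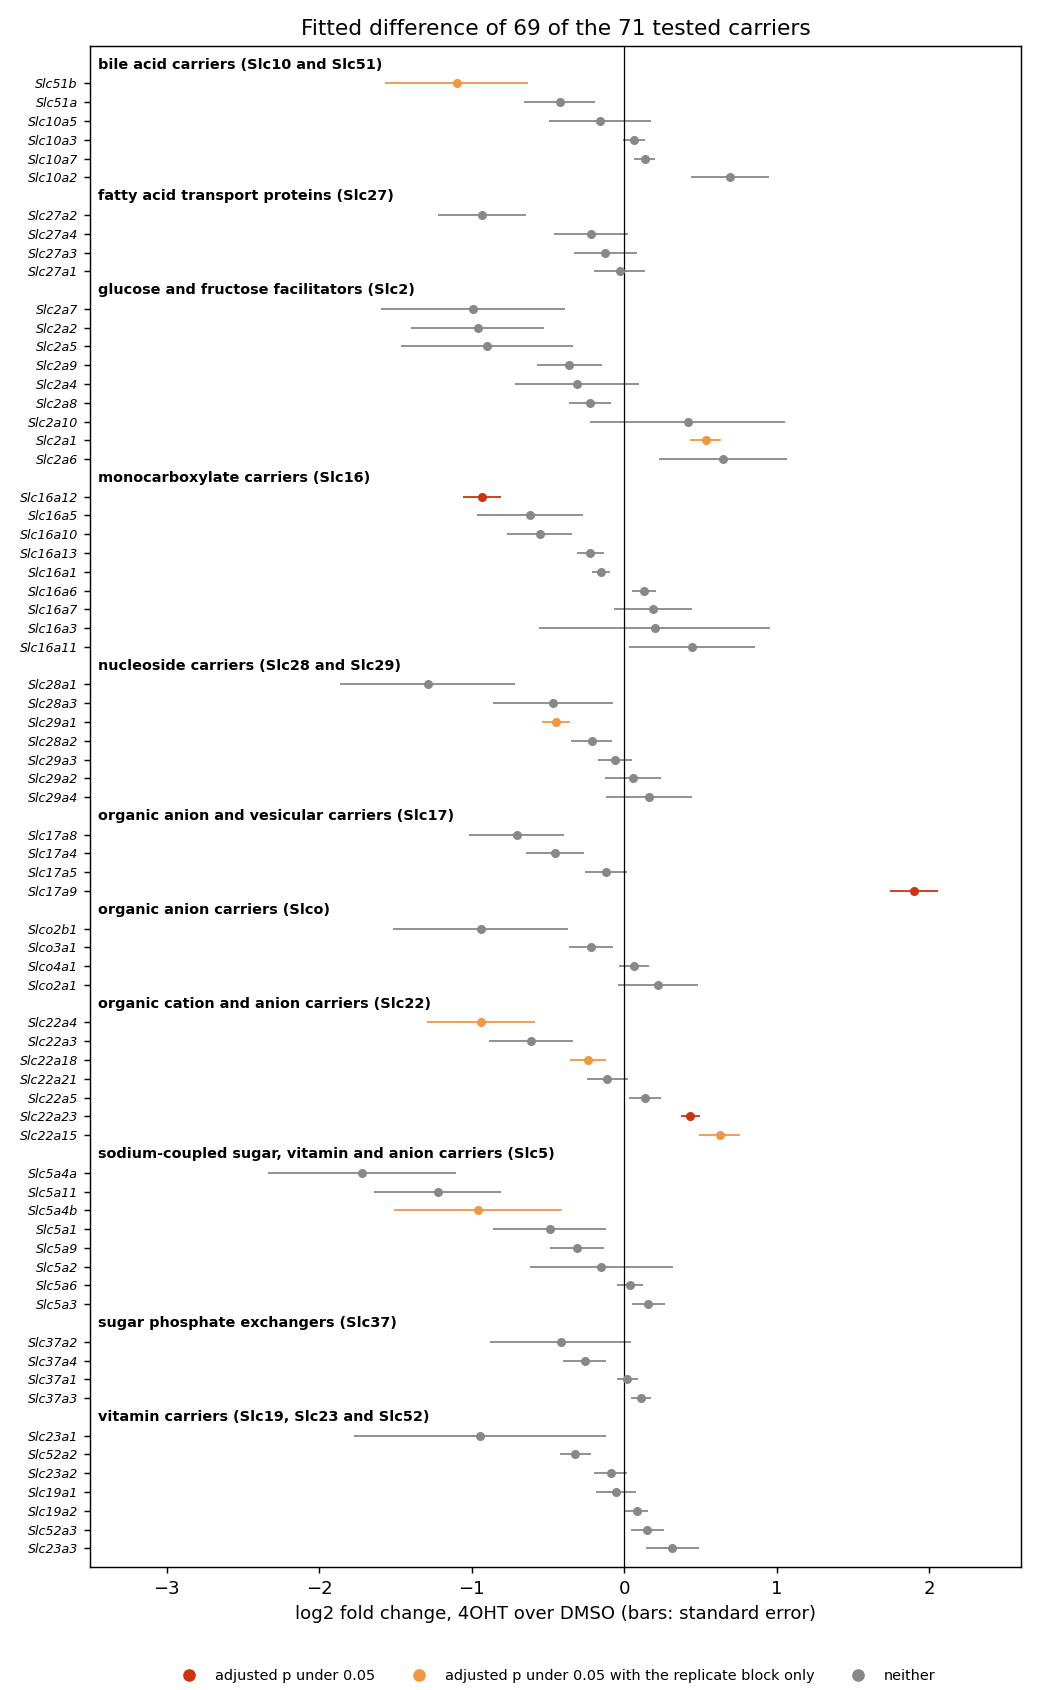
Log2 fold change (x axis, 4OHT over DMSO) with standard error for 69 of the 71 tested carriers, grouped by family. Red marks the 3 carriers called without the block and orange the 7 called with the replicate block only; Slc17a9 sits farthest to the right at 1.90.

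Levels between genes are compared per length, as CPM per kilobase of merged GENCODE exons, in the DMSO libraries. Slc5a1, the sodium-coupled glucose and galactose carrier of the brush border, was highest at 104 ± 60.6 CPM per kilobase (SD, n = 3). Slc27a4, a fatty acid transport protein of the small intestine, followed at 40.9 ± 11.8, the lactate and butyrate carrier Slc16a1 at 34.6 ± 1.74 and Slc22a18, an imprinted gene, at 32.1 ± 3.64. Slc5a4b (26.5 ± 17.2), the widespread glucose facilitator Slc2a1 (24.1 ± 0.683) and the nucleoside carrier Slc29a1 (23.7 ± 1.6) came next. Slc5a1 exceeded Slc27a4 by slightly more than its own SD, which DMSO replicate 3 widened. From Slc27a4 to Slc29a1, each neighbour in this order differed by less than the larger of both SDs. At the other end, 19 of the 83 carriers had a mean under 1 CPM. The 12 carriers below the filter were Slc16a4, Slc16a8, Slc17a2, Slc17a3, Slc17a7, Slc22a14, Slc22a17, Slc27a5, Slc5a5, Slc5a8, Slc5a10 and Slco5a1, with 0 to 19 counts in any library.

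**Figure D2:**
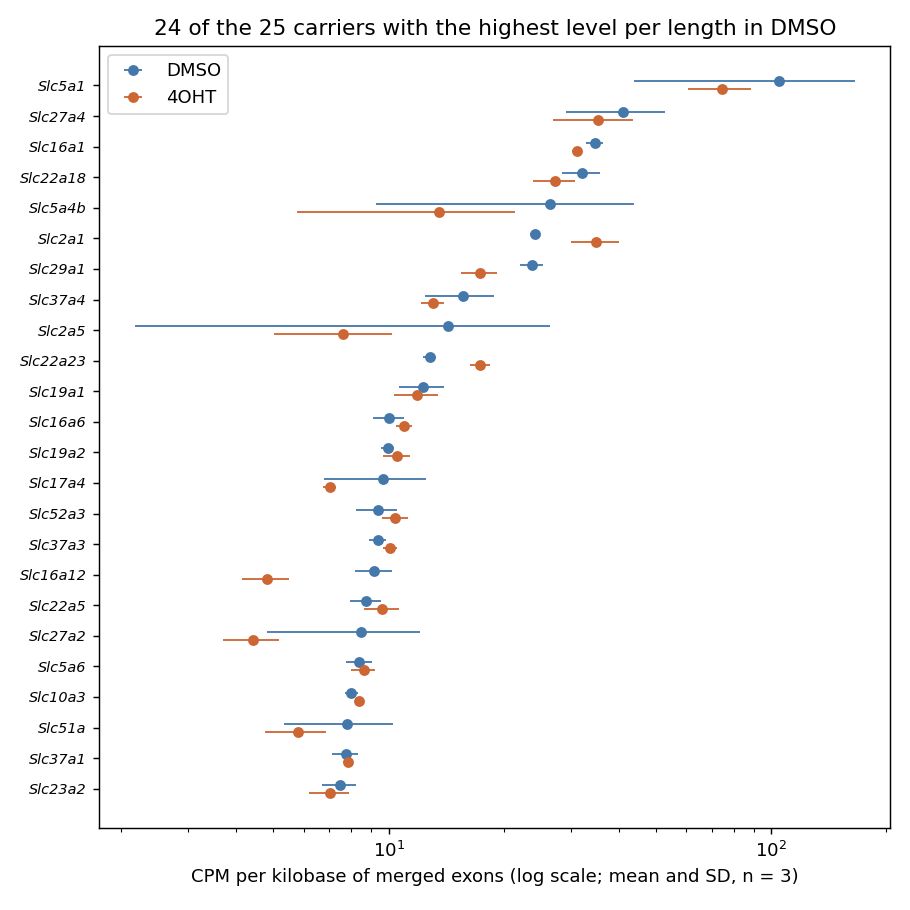
Level per length (x axis, log scale, CPM per kilobase of merged exons, mean and SD of 3 libraries) of 24 carriers among the 25 that ranked highest in DMSO, with DMSO in blue and 4OHT in orange. Slc5a1 leads at 104 in DMSO; Slc2a1 and Slc22a23 lie to the right after 4OHT and Slc16a12 and Slc29a1 to the left.

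Of the 9 glucose and fructose facilitators (Slc2), all tested, 3 had a positive log2 fold change and 6 a negative one. Slc2a1 measured 82.8, 83.3 and 87.2 CPM under DMSO against 116, 142 and 109 CPM under 4OHT. All 4OHT libraries were above all DMSO libraries, with means of 84.4 ± 2.4 and 122 ± 17.4 CPM (SD, n = 3). The log2 fold change was 0.54 (SE 0.101), which missed the threshold in edgeR (adjusted p = 0.0675). It rose with the replicate block (edgeR adjusted p = 0.0288) and by DESeq2 (adjusted p = 0.00046). Of its merged exon bases, 3.0% overlap the antisense gene Gm12868, so reads of both could be mixed if strand was not used in counting.

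The fructose carrier Slc2a5 measured 24.2, 25.4 and 96.0 CPM under DMSO against 23.9, 18.2 and 35.6 CPM under 4OHT. DMSO replicate 3 was far above the other 5 libraries, and the groups overlapped. The log2 fold change was -0.90 (SE 0.562, edgeR adjusted p = 0.508) and 0.06 without that library (adjusted p = 0.934). Without replicate 3 of both groups it was -0.24 (edgeR adjusted p = 0.391). Slc2a2, a facilitator for glucose, galactose and fructose, measured 18.7, 18.4 and 51.2 CPM under DMSO against 14.4, 10.8 and 20.0 CPM under 4OHT. It was lower after 4OHT in all 3 same-number pairs, with a log2 fold change of -0.96 (SE 0.437, edgeR adjusted p = 0.368, 0.0516 with the block). Without DMSO replicate 3 the value was -0.30 (adjusted p = 0.571), and without replicate 3 of both groups -0.56 (edgeR adjusted p = 0.0774). Slc2a7, a further facilitator of the gut, measured 0.862, 1.33 and 4.39 CPM under DMSO against 1.15, 0.759 and 1.36 CPM under 4OHT (-0.99, edgeR adjusted p = 0.499, and -0.02 without DMSO replicate 3). Its value without replicate 3 of both groups was -0.21. The urate carrier Slc2a9 was at 12.3 ± 3.92 and 9.58 ± 0.377 CPM and the intracellular Slc2a8 at 6.78 ± 0.469 and 5.8 ± 0.761 CPM, and neither passed. Over the family edgeR and limma-voom called 0, 1 was higher by DESeq2, and an unadjusted p under 0.05 in edgeR was reached by 1 higher and 0 lower (1 and 2 when blocked).

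Among 11 sodium-coupled carriers (Slc5), 8 were tested, and 6 of them had a negative log2 fold change. The median of the 8 was -0.40, -0.13 without DMSO replicate 3 and -0.24 without replicate 3 of both groups. Slc5a1 measured 278, 293 and 716 CPM under DMSO against 309, 248 and 361 CPM under 4OHT. The groups overlapped, and DMSO replicate 3 stood far above the rest. The log2 fold change was -0.49 (SE 0.37, edgeR adjusted p = 0.594) and turned to 0.09 without that library (adjusted p = 0.803). Without replicate 3 of both groups it was -0.04 (edgeR adjusted p = 0.886). Slc5a4b, of the sugar-sensing branch of the family, measured 59.3, 47.1 and 148 CPM under DMSO against 40.3, 20.2 and 69.9 CPM under 4OHT. Replicate 3 was the highest of its group on both sides, and each 4OHT library was below the DMSO library of the same number. Its log2 fold change was -0.96 (SE 0.551, edgeR adjusted p = 0.471), and with the replicate block it fell (-0.95, adjusted p = 0.0191). Without DMSO replicate 3 and without the block it was -0.29 (adjusted p = 0.794). Without replicate 3 of both groups, also unblocked, it was -0.82 (edgeR adjusted p = 0.184). Slc5a4a, the neighbouring copy, measured 0.862, 1.03 and 3.18 CPM under DMSO against 0.601, 0.225 and 0.68 CPM under 4OHT (-1.72, edgeR adjusted p = 0.259, 0.0584 with the block, and -0.91 without DMSO replicate 3). The transcripts of Slc5a4a and Slc5a4b share 1 stretch of 50 bases, so almost no 50-base stretch is common to both.

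The myo-inositol carrier Slc5a11 measured 3.61, 3.32 and 9.45 CPM under DMSO against 2.46, 2.02 and 2.49 CPM under 4OHT. The groups did not overlap, with a log2 fold change of -1.22 (SE 0.417, edgeR adjusted p = 0.236, 0.0805 with the block and 0.0452 by DESeq2). Without DMSO replicate 3 it was -0.58 (adjusted p = 0.164). The other inositol carrier, Slc5a3, was at 15.5 ± 1.66 and 17.3 ± 1.45 CPM, and the biotin and pantothenate carrier Slc5a6 at 33.5 ± 2.6 and 34.4 ± 2.5 CPM. Slc5a9, which carries mannose and related sugars, was at 23.1 ± 2.82 and 18.7 ± 4.59 CPM (-0.31, edgeR adjusted p = 0.472). Over this family edgeR and limma-voom called 0, 1 was lower by DESeq2, the block called 1 lower, and an unadjusted p under 0.05 in edgeR was reached by 0 higher and 2 lower.

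**Figure D3:**
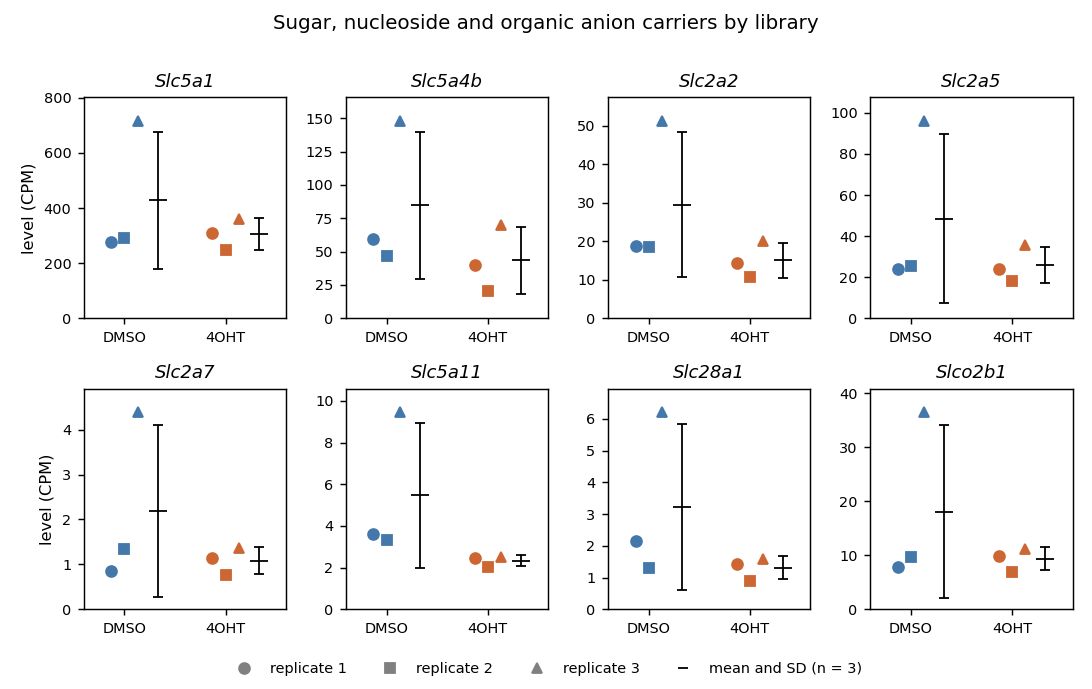
Level (y axis, CPM) of 8 carriers in each library, with replicates 1, 2 and 3 as circles, squares and triangles and the mean and SD of 3 libraries in black. DMSO replicate 3 is the highest library in every panel, at 716 CPM for Slc5a1 and 96.0 CPM for Slc2a5; the panels were chosen after the values were seen.

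Sugar phosphate exchangers (Slc37) showed small differences. Slc37a4, which brings glucose 6-phosphate into the endoplasmic reticulum, measured 38.1, 40.8 and 55.1 CPM under DMSO against 37.1, 40.1 and 34.8 CPM under 4OHT (-0.26, edgeR adjusted p = 0.454, and -0.09 without DMSO replicate 3). Slc37a1 was at 89.6 ± 6.93 and 90.9 ± 2.85 CPM (0.02, SE 0.0684, edgeR adjusted p = 0.921). Of the 4 exchangers edgeR, DESeq2 and limma-voom called 0, and 0 passed at an unadjusted p under 0.05.

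Of 15 listed genes of sugar digestion and metabolism, all tested, Hk1 rose and none fell in edgeR. With the block Hk1 and 3 lower genes were called. Hk1, a hexokinase that traps glucose after uptake, measured 46.4, 46.8 and 48.2 CPM under DMSO against 96.0, 96.2 and 94.9 CPM under 4OHT. The groups were far apart relative to their spread (log2 fold change 1.02, SE 0.0481, edgeR adjusted p = 0.0018). With the block, those that fell were Mlxipl, a sugar-responsive transcription factor (-0.71, blocked edgeR adjusted p = 0.018, 0.251 without the block), the gluconeogenic enzyme Fbp1 (-1.65, 0.04 and 0.155) and the maltase Mgam (-0.43, 0.0443 and 0.241). In that order, the unblocked values were -0.75, -1.85 and -0.45, and -0.40, -1.01 and -0.26 without DMSO replicate 3. Without that library unblocked edgeR called Fbp1 (adjusted p = 0.0404). Without replicate 3 of both groups it called Mlxipl (adjusted p = 0.0168) and Fbp1 (0.0201), and Mgam missed the threshold (0.0515). DESeq2 called 1 gene of the list higher and 2 lower, Fbp1 among them (adjusted p = 0.0499). The list had a median of -0.75, -0.09 without DMSO replicate 3 and -0.36 without replicate 3 of both groups.

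Among 12 monocarboxylate carriers (Slc16), 10 were tested, and in edgeR 1 fell and 9 did not pass. The block and limma-voom also called 1 lower, and DESeq2 called 1 higher and 1 lower. An unadjusted p under 0.05 in edgeR was reached by 1 higher and 4 lower (1 and 5 when blocked). Slc16a12, a creatine carrier whose gene lies on chromosome 19 from 34668403 to 34747289 in GRCm38, measured 35.6, 35.9 and 43.1 CPM under DMSO against 22.7, 17.1 and 20.3 CPM under 4OHT. Every 4OHT library was below every DMSO library. The means were 38.2 ± 4.26 and 20.1 ± 2.84 CPM, a 1.91-fold lower level (log2 fold change -0.93, SE 0.127, edgeR adjusted p = 0.0318, 0.0123 with the block). The fold was similar without DMSO replicate 3 (-0.84, adjusted p = 0.0213). Leaving out any other single library ended the call, with adjusted p from 0.0775 to 0.126. The promoter shown above belongs to this gene.

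Slc16a1 was the most abundant of the family, at 148, 149 and 162 CPM under DMSO against 137, 142 and 134 CPM under 4OHT. The groups did not overlap, but the difference was small (-0.15, SE 0.0589, edgeR adjusted p = 0.296). Slc16a10, which carries aromatic amino acids, measured 39.9, 37.5 and 64.9 CPM under DMSO against 33.3, 28.4 and 35.2 CPM under 4OHT (-0.55, edgeR adjusted p = 0.29, 0.0615 with the block, and -0.27 without DMSO replicate 3).

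Slc16a3, the lactate exporter of glycolytic cells, varied more within groups than between them. It measured 10.01, 18.3 and 57.6 CPM under DMSO against 19.8, 64.1 and 14.5 CPM under 4OHT. The high library was replicate 3 in DMSO and replicate 2 in 4OHT, so the spread did not follow the replicate number. The log2 fold change was 0.20 (SE 0.757, edgeR adjusted p = 0.931) and 1.20 without DMSO replicate 3 (adjusted p = 0.424). Of 8 tested partner and enzyme genes of lactate and ketone handling, edgeR and limma-voom called 0, DESeq2 1 lower, and unadjusted p in edgeR 2 lower. The block called 1, the ketone body enzyme Bdh1, which fell (-0.30, edgeR adjusted p = 0.0205 with the block).

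Among 6 bile acid carriers (Slc10 and Slc51), all tested, 3 had a positive and 3 a negative log2 fold change. Slc10a2, the apical sodium-coupled bile acid carrier best known from the ileum, measured 4.61, 4.9 and 2.47 CPM under DMSO against 5.67, 6.74 and 7.05 CPM under 4OHT. There was no overlap between groups (0.69, SE 0.255, edgeR adjusted p = 0.267, 0.137 with the block, and 0.44 without DMSO replicate 3). Slc51a and Slc51b encode the alpha and beta subunits of the basolateral exporter. Slc51b measured 2.11, 1.74 and 3.9 CPM under DMSO against 1.26, 0.534 and 1.79 CPM under 4OHT. Its groups overlapped by 1 library each, and it fell with the replicate block (-1.14, edgeR adjusted p = 0.0414) but not without it (-1.096, SE 0.469, adjusted p = 0.335, and -0.68 without DMSO replicate 3). Unblocked and without replicate 3 of both groups it was -1.11 (edgeR adjusted p = 0.18). Slc51b had only 19 to 120 counts a library, and 12.8% of its exon bases overlap Rasl12 on the opposite strand. Slc51a measured 21.4, 19.4 and 33.9 CPM under DMSO against 17.6, 15.7 and 22.3 CPM under 4OHT (-0.42, edgeR adjusted p = 0.45, 0.0519 with the block, and -0.14 without DMSO replicate 3). Without replicate 3 of both groups Slc51a was at -0.30 (edgeR adjusted p = 0.17). Of its exon bases 17.7% overlap Pcyt1a on the opposite strand.

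Both exporter subunits were lower after 4OHT in all 3 same-number pairs. The other family members were Slc10a7 at 22.99 ± 0.784 and 25.2 ± 0.962 CPM, Slc10a3 at 16.2 ± 0.612 and 16.9 ± 0.427 CPM and Slc10a5 at 21.6 ± 10.1 and 19.3 ± 5.4 CPM, with edgeR adjusted p from 0.407 to 0.871. For Slc10a7 the groups did not overlap (0.14, SE 0.067, edgeR adjusted p = 0.407). Over the group edgeR, limma-voom and DESeq2 called 0, and an unadjusted p under 0.05 in edgeR was reached by 1 higher and 0 lower (1 and 2 when blocked). Of 7 tested other genes of bile acid handling edgeR, limma-voom and DESeq2 called 0, and 0 passed at an unadjusted p under 0.05 in edgeR. The block called 1, the conjugate exporter Abcc2, which fell (-0.32, edgeR adjusted p = 0.0253 with the block).

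Of 5 organic anion carriers of the Slco family, 4 were tested and edgeR, with and without the block, limma-voom and DESeq2 called 0 (0 at an unadjusted p under 0.05, and 1 lower with the block). Slco2b1, which takes up steroid sulfates and drugs in the gut, measured 7.92, 9.74 and 36.5 CPM under DMSO against 9.94, 7.0 and 11.2 CPM under 4OHT. DMSO replicate 3 was again the one high library, and the log2 fold change went from -0.94 (SE 0.573, edgeR adjusted p = 0.499) to 0.08 without it (adjusted p = 0.89). Without replicate 3 of both groups the value was -0.07 (edgeR adjusted p = 0.899). Slco3a1 was at 32.7 ± 4.63 and 28.1 ± 4.25 CPM and lower after 4OHT in all 3 same-number pairs (-0.22, SE 0.144, edgeR adjusted p = 0.535, 0.0855 with the block). Slco4a1 was at 10.9 ± 0.682 and 11.4 ± 0.751 CPM and the prostaglandin carrier Slco2a1 at 5.47 ± 1.48 and 6.37 ± 1.68 CPM.

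Among 10 organic cation and anion carriers (Slc22), 8 were tested and Slc22a23 rose. Slc22a23, a member with no settled substrate, measured 85.5, 79.2 and 81.0 CPM under DMSO against 110, 105 and 118 CPM under 4OHT. All 4OHT libraries were above all DMSO libraries, with means of 81.9 ± 3.22 and 111 ± 6.61 CPM (log2 fold change 0.43, SE 0.0634, edgeR adjusted p = 0.0378, 0.0143 with the block). The gene lies on chromosome 13 from 34179158 to 34345182. The call was kept without DMSO replicate 3 (adjusted p = 0.0378) and lost without any other single library (0.0775 to 0.187).

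With the block 2 members rose and 2 fell. Slc22a15, a carrier of zwitterions, measured 15.1, 13.1 and 10.7 CPM under DMSO against 20.4, 18.5 and 21.1 CPM under 4OHT. The groups did not overlap. Slc22a15 rose with the block (0.64, edgeR adjusted p = 0.0395, and 0.0878 without it) and, unblocked, by DESeq2 (adjusted p = 0.00259). Slc22a4, the ergothioneine carrier, measured 4.97, 3.76 and 9.23 CPM under DMSO against 3.01, 2.42 and 3.9 CPM under 4OHT. It fell with the block (-0.89, edgeR adjusted p = 0.0366) and not without it (-0.94, SE 0.353, 0.281, and -0.49 with adjusted p = 0.378 once DMSO replicate 3 was left out), and the groups overlapped by a narrow margin. Unblocked and without replicate 3 of both groups the value was -0.69 (edgeR adjusted p = 0.14). Slc22a18 measured 54.9, 48.2 and 60.6 CPM under DMSO against 47.6, 40.1 and 51.4 CPM under 4OHT. Its difference was small and of like size in each pair, and it fell with the block (-0.24, edgeR adjusted p = 0.0393; 0.412 without it).

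**Figure D4:**
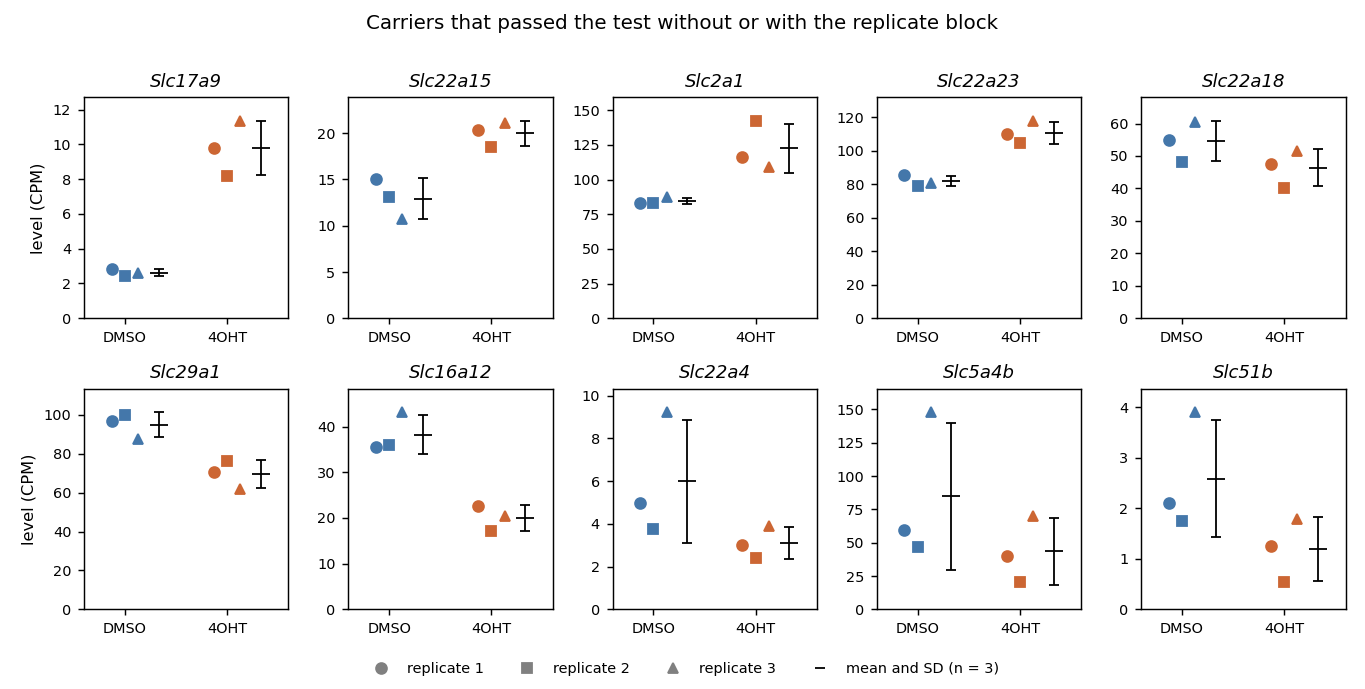
Level (y axis, CPM) in each library of the 10 carriers called without or with the replicate block, with replicates 1, 2 and 3 as circles, squares and triangles and the mean and SD (n = 3) in black. The groups are apart for Slc17a9, Slc22a15, Slc2a1, Slc22a23, Slc29a1 and Slc16a12, and overlap for Slc22a18, Slc22a4, Slc5a4b and Slc51b, where each 4OHT library is below the DMSO library of its number.

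Slc22a5, the carnitine carrier next to Slc22a4 on chromosome 11, was at 26.9 ± 2.47 and 29.6 ± 3.13 CPM (0.14, edgeR adjusted p = 0.591). The third gene of that cluster, Slc22a21, was at 8.96 ± 1.11 and 8.3 ± 0.759 CPM. Of all 50-base stretches of Slc22a5 transcripts 26.1% also occur in Slc22a21, and 21.7% the other way, so the split of reads between these 2 genes is uncertain. For Slc22a4 and Slc22a21 the share is 0.48%.

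Slc17a9 had the largest difference of any tested carrier. It encodes the carrier that loads ATP and other nucleotides into secretory vesicles, and spans positions 180725263 to 180742280 of chromosome 2. Slc17a9 measured 2.83, 2.42 and 2.6 CPM under DMSO against 9.79, 8.2 and 11.3 CPM under 4OHT, with 80 to 450 counts a library. The lowest 4OHT library was well above the highest DMSO library, with means of 2.62 ± 0.207 and 9.78 ± 1.56 CPM. The rise was 3.73-fold (log2 fold change 1.90, SE 0.157, edgeR adjusted p = 0.00816, 0.00581 with the block). Without single libraries its log2 fold change ran from 1.78 to 2.01. Leaving out DMSO replicate 1 (edgeR adjusted p = 0.0572), DMSO replicate 2 (0.0606) or 4OHT replicate 1 (0.059) ended the call.

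The other Slc17 carriers did not rise with it. Slc17a4, an organic anion carrier of the intestinal brush border, measured 50.9, 44.9 and 77.3 CPM under DMSO against 42.0, 40.4 and 43.7 CPM under 4OHT. There was no overlap between groups (-0.46, SE 0.191, edgeR adjusted p = 0.329, 0.113 with the block, and -0.19 without DMSO replicate 3). The lysosomal sialic acid exporter Slc17a5 was at 19.7 ± 3.52 and 18.1 ± 1.53 CPM, and the vesicular glutamate carrier Slc17a8 at 1.49 ± 0.266 and 0.918 ± 0.367 CPM (-0.70, edgeR adjusted p = 0.35). Slc17a2, Slc17a3 and Slc17a7 were below the filter.

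Among 7 nucleoside carriers (Slc28 and Slc29), all tested, the equilibrative carrier Slc29a1 was the most abundant. It measured 96.9, 100.02 and 87.7 CPM under DMSO against 70.5, 76.4 and 61.7 CPM under 4OHT. Every 4OHT library was below every DMSO library, with means of 94.9 ± 6.4 and 69.5 ± 7.4 CPM (log2 fold change -0.45, SE 0.0919). The difference missed the threshold in edgeR (adjusted p = 0.0805). Slc29a1 fell with the block (adjusted p = 0.0102), without DMSO replicate 3 (0.0404) and by DESeq2 (0.00217). Of its exon bases 6.86% overlap the antisense gene Gm17080.

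The other equilibrative carriers were Slc29a2 at 16.5 ± 3.58 and 17.3 ± 2.75 CPM, the lysosomal Slc29a3 at 12.1 ± 0.954 and 11.6 ± 1.11 CPM and Slc29a4 at 1.39 ± 0.342 and 1.57 ± 0.426 CPM. The concentrative, sodium-coupled carriers of the brush border had DMSO replicate 3 as their high library in 2 of 3 cases. The pyrimidine nucleoside carrier Slc28a1 measured 2.17, 1.31 and 6.21 CPM under DMSO against 1.43, 0.899 and 1.59 CPM under 4OHT (-1.29, SE 0.574, edgeR adjusted p = 0.357, 0.0989 with the block, and -0.41 without DMSO replicate 3). Slc28a3, of broad specificity, measured 7.7, 7.35 and 16.9 CPM and then 8.19, 4.78 and 10.1 CPM (-0.46, edgeR adjusted p = 0.639, and 0.03 without DMSO replicate 3). Its value without replicate 3 of both groups was -0.22. The purine nucleoside carrier Slc28a2 was at 3.6 ± 0.215 and 3.11 ± 0.254 CPM. Over the group edgeR and limma-voom called 0, 1 was lower by DESeq2, and an unadjusted p under 0.05 in edgeR was reached by 0 higher and 1 lower (0 and 2 when blocked). Of 11 other genes of nucleoside metabolism edgeR and limma-voom called 0, DESeq2 1 lower, and unadjusted p in edgeR 2 lower. The block called 1, the purine phosphorylase gene Pnp2, which fell (-0.53, edgeR adjusted p = 0.011 with the block).

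Vitamin carriers (Slc19, Slc23 and Slc52), 7 genes, all tested, did not pass in edgeR, with or without the block, in limma-voom or in DESeq2, with 0 calls each. At an unadjusted p under 0.05 edgeR placed 0 higher and 1 lower (1 and 1 when blocked). The riboflavin carrier Slc52a2 measured 37.4, 32.6 and 40.9 CPM under DMSO against 32.0, 27.96 and 28.9 CPM under 4OHT, with no overlap (-0.32, SE 0.0999, edgeR adjusted p = 0.202, 0.0613 with the block). The other riboflavin carrier, Slc52a3, was at 26.0 ± 3.19 and 28.8 ± 2.23 CPM (0.15, edgeR adjusted p = 0.56). The folate carrier Slc19a1 was at 57.2 ± 7.66 and 55.2 ± 7.21 CPM and the thiamine carrier Slc19a2 at 38.2 ± 1.49 and 40.4 ± 3.25 CPM. The ascorbate carrier Slc23a2 was at 59.4 ± 6.1 and 55.9 ± 6.72 CPM (-0.09, SE 0.11, edgeR adjusted p = 0.762). The epithelial ascorbate carrier Slc23a1 measured 0.806, 0.735 and 5.1 CPM under DMSO against 0.916, 0.562 and 1.89 CPM under 4OHT, with replicate 3 highest on both sides (-0.94, SE 0.828, edgeR adjusted p = 0.651). Its value turned to 0.55 without DMSO replicate 3 (adjusted p = 0.65). Without replicate 3 of both groups it was -0.07 (edgeR adjusted p = 0.943). Of 9 tested other vitamin genes edgeR and limma-voom called 0, DESeq2 1 lower, and unadjusted p in edgeR 1 higher and 2 lower. The block called 1, the folate enzyme Shmt1, which fell (-0.35, edgeR adjusted p = 0.0289 with the block).

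Of 5 fatty acid transport proteins (Slc27), 4 were tested and all 4 had a negative log2 fold change. Slc27a2, a very long-chain acyl-CoA synthetase, measured 23.2, 24.6 and 47.5 CPM under DMSO against 18.7, 13.4 and 17.8 CPM under 4OHT. There was no overlap between groups (-0.93, SE 0.29, edgeR adjusted p = 0.201, 0.0582 with the block, and called by DESeq2 at 0.0201). Without DMSO replicate 3 the value was -0.53 (adjusted p = 0.123). Slc27a4 measured 165, 138 and 238 CPM under DMSO against 166, 114 and 186 CPM under 4OHT, with overlap (-0.22, SE 0.241, edgeR adjusted p = 0.731, and 0.03 without DMSO replicate 3). Its value without replicate 3 of both groups was -0.12. Over the 4 tested genes edgeR and limma-voom called 0, 1 was lower by DESeq2, and an unadjusted p under 0.05 in edgeR was reached by 0 higher and 1 lower.

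Of 5 tested scaffold and trafficking genes for such carriers, edgeR and limma-voom called 0, DESeq2 1 higher and 1 lower, and unadjusted p in edgeR 3 higher and 1 lower. With the block Pdzk1ip1 (0.83, edgeR adjusted p = 0.0132) and Mal2 (0.24, 0.0409) rose and the brush border scaffold Pdzk1 (-0.83, 0.0379) fell.

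The summed level of the 83 carriers came to 2079, 2028 and 3061 CPM under DMSO, by replicate number, against 2079, 1966 and 2188 CPM under 4OHT. DMSO replicate 3 was high, and the other 5 libraries lay within 1966 to 2188 CPM. For each tested carrier, replicate 3 was set against the mean of replicates 1 and 2 of its group on the log2 scale, with 0.5 CPM added. The median was 0.22 in DMSO and 0.11 in 4OHT, beside 0.00 and 0.00 for all tested genes. It was 0.79 and 0.42 for the enterocyte markers, 0.99 and 0.65 for the goblet cell markers and -0.24 and -0.50 for the stem cell markers. The part of these cell types in the carriers' differences was not tested.

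In DMSO, 15 of 71 carriers (21.1%) were over 2-fold higher in replicate 3, beside 255 of 14544 tested genes (1.75%). They were Slc10a5, Slc16a3, Slc16a5, Slc22a4, Slc23a1, Slc28a1, Slc28a3, Slc2a2, Slc2a5, Slc2a7, Slc5a1, Slc5a4a, Slc5a4b, Slc5a11 and Slco2b1, singled out after their values were seen. In 4OHT replicate 3 the only carrier over 2-fold higher was Slc5a4b, at 1.28. By role, the DMSO median was highest for the sodium-coupled carriers (0.79) and the glucose and fructose facilitators (0.71), and lowest for the nucleoside carriers (-0.17). In 4OHT these medians were 0.20, 0.28 and -0.23. The 3 carriers called without the block had offsets in DMSO of -0.01 (Slc17a9), -0.02 (Slc22a23) and 0.27 (Slc16a12).

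**Figure D5:**
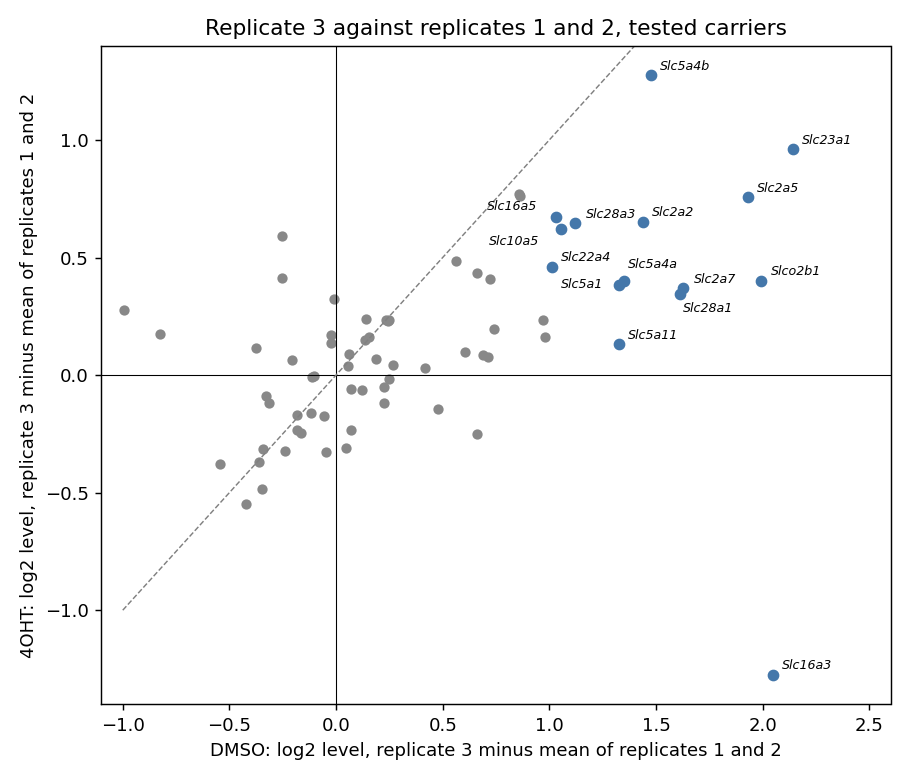
Log2 level of replicate 3 minus the mean of replicates 1 and 2, in DMSO (x axis) and in 4OHT (y axis), for each of the 71 tested carriers, with equal values on the dashed line. The 15 carriers above 1 in DMSO are blue and named, 14 of them are above 0 in 4OHT as well, and Slc16a3 is at 2.05 and -1.27.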

How the data were processed

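Poly(A) RNA of 6 organoid libraries, 3 DMSO and 3 4OHT, was converted to directional libraries from 250 ng of RNA, as the labels state. STAR 2.4.0f1, bcl2fastq 1.8.4 and GRCm38 are named in the submitters' processing notes. The counting program and its strand setting are not given in the sources used here. The authors deposited raw counts per gene and library, used for every test here. They also deposited a normalised score per library (counts scaled and rounded), a log2 fold change, a mean log2 level and p-values from DESeq and edgeR, per the file headers. Of these only the deposited p-values and log2 signs were counted.

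In R 4.3.3, edgeR 4.0.16 tested 4OHT against DMSO on all genes kept by filterByExpr, with TMM scaling and p-values (two-sided) adjusted over all tested genes. Standard errors are the log2 fold change divided by the root of F. DESeq2 1.42.0, limma 3.58.1 (voom), other scalings and filters, a replicate block and left-out libraries were the alternatives. The fit was also run on simulated counts that held no pairing and no outlying library. That run therefore cannot judge the calls made with the block or the part of DMSO replicate 3. Deviations from group means correlated at 0.303, 0.332 and 0.427 between same-number libraries and at -0.372 to 0.0747 otherwise, so same-number libraries were treated as pairs, on the data alone. The labels do not say that replicates came from separate cultures or animals, and the spread behind each p-value may thus be technical. Coordinates and exon lengths came from GENCODE mouse release 21, where all 83 carriers were found.

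The carriers and gene lists were chosen with earlier results of these data known. Genes named by rule were those called without or with the block, and in each family group the most abundant and the smallest p. From the other lists they were the called genes, up to 4 a list. Values of other carriers are given because all are members, and were chosen after they were seen. Results of a few genes are not reported here, and the counts include them.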

Additional observations from a re-analysis of the deposited data

How the results depend on the processing

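Each alternative changed one choice, except the one that left out replicate 3 of both groups and added the replicate block. The counts of 2 carriers higher and 1 lower were the same with DESeq2 size factors, library totals alone, no low-count filter and limma-voom. With a minimum mean of 10 CPM 0 were higher and 1 lower, since Slc17a9 was below that minimum and Slc22a23 missed the threshold (edgeR adjusted p = 0.0522). The replicate block gave 4 higher and 6 lower, and DESeq2 5 and 4. Leaving out 1 library gave 0 to 2 higher and 0 to 2 lower. Leaving out replicate 3 of both groups gave 3 higher and 2 lower, and 8 and 18 with the replicate block, where 1 residual degree of freedom among samples remained. The median log2 fold change of -0.16 ran from -0.195 to -0.0129 without single libraries. Of 24 named carriers, 5 changed sign without single libraries, and none of these 5 was called. The log2 fold change then ran from -0.378 to 0.0312 for Slc27a4, from -1.3 to 0.0804 for Slco2b1 and from -0.721 to 0.0948 for Slc5a1, each positive without DMSO replicate 3 only. Without replicate 3 of both groups these 3 were at -0.119, -0.0685 and -0.0419. Without single libraries the log2 fold change ran from -0.168 to 0.00238 for Slc23a2, positive without 4OHT replicate 2 only. For Slc37a1 it ran from -0.0211 to 0.079, negative without DMSO replicate 1 (-0.00182), DMSO replicate 2 or 4OHT replicate 3 (-0.00353). The cause was not tested. With the replicate block no named carrier lost its call. Depth limits carriers with few counts, such as the 12 below the filter.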
